A study of Mus musculus with 2 samples.

Results

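The cyclin-dependent kinase inhibitors examined here are the 3 Cip/Kip genes (Cdkn1a, Cdkn1b and Cdkn1c) and the 4 Ink4 genes (Cdkn2a, Cdkn2b, Cdkn2c and Cdkn2d). These 7 genes were taken by symbol from 23950 gene symbols in an RNA-seq study of mouse optic nerve, taken whole at postnatal day 12. It has 1 control library, labelled Hdac3f/+; Olig1-cre, and 1 Hdac3 cKO library, labelled Hdac3f/f; Olig1-cre. Both strains are given as mixed. The Cre recombinase is expressed under control of Olig1, a transcription factor gene of the oligodendrocyte lineage, and f marks a floxed allele of Hdac3, which encodes a histone deacetylase. The control animals therefore carry the recombinase and a floxed allele as well, and recombination is directed to cells that express Olig1 and not to the whole nerve. How many animals went into each library is not stated in the labels.

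Cyclin-dependent kinases drive a cell through its division cycle when they are bound by a cyclin. Ink4 proteins bind the kinases CDK4 and CDK6 and keep them from the D cyclins, while Cip/Kip proteins bind assembled cyclin and kinase complexes and inhibit CDK2 complexes in particular. With these kinases held in check, the retinoblastoma family of pocket proteins stays bound to E2F factors and the cell leaves the cycle in G1. In the oligodendrocyte lineage, p27 (Cdkn1b) is known for limiting the divisions of precursor cells, and p21 (Cdkn1a) and p57 (Cdkn1c) have also been tied to cycle exit and maturation.

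Cdkn1a, the single inhibitor that differed by more than 2-fold between the libraries, has transcripts from 2 start sites, and the deposited value joins both. The 250 bases before each start and before the start of Cdkn1b, its close relative with similar levels in both libraries, are shown to let the promoters be compared. They are RefSeq sequences of build GRCm38.p6, all on the plus strand, and this build is not the mm9 build of the deposited loci. Capitals mark matches on either strand to the p53 decamer consensus, the GC box GGGCGG, the letters TATAA and the letters CCAAT. No marked matches overlap in these windows.
Cdkn1a, upstream start, chr17:29090729-29090978: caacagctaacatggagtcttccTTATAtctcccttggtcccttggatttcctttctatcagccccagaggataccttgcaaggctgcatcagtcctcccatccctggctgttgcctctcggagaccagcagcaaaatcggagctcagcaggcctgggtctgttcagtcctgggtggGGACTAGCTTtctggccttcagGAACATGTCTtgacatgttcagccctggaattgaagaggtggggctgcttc
Cdkn1a, downstream start, chr17:29093519-29093768: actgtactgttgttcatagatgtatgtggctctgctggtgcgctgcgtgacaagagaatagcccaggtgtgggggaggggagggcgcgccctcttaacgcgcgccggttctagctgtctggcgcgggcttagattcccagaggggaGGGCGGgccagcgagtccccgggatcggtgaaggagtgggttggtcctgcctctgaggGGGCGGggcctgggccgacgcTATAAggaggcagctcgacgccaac
Cdkn1b, chr6:134920151-134920400: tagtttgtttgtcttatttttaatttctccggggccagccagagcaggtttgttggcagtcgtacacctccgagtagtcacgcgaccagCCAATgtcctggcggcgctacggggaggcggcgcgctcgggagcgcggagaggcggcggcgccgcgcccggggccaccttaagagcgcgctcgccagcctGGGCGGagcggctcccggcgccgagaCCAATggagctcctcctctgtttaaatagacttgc
The upstream Cdkn1a window held 2 matches to the p53 decamer, beginning 73 and 51 bases before the start. At least 1 such match was present in 7.13% of 32851 RefSeq windows of the same length, and 2 or more in 0.259%. The window of Cdkn2d, not printed here, also held 1 such match, 102 bases before its start. The downstream Cdkn1a window held 2 GC boxes, 104 and 46 bases before the start, and TATAA 25 bases before it. The Cdkn1b window held 1 GC box and 2 CCAAT matches. A GC box was present in 32.7% of all windows, TATAA in 22.8% and CCAAT in 33.8%. These matches describe the letters only, and their part in any difference between the libraries was not tested. RefSeq entries were found for 6 of the 7 genes, and Cdkn1c had no entry in the table used.

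Levels are the FPKM deposited by the authors, that is, fragments scaled by transcript length and library size, so that different genes can be compared within a library. The deposited values summed to 441867 in the control library and 557861 in the library labelled cKO, and the numbers of reads are unknown. Both sums take in entries of every status, among them Gfap, at 3997 FPKM in the control library and listed at 0 in the library labelled cKO. Hdac3 itself was at 36.4 FPKM in the control library and 38.0 FPKM in the library labelled cKO, a log2 difference of 0.06. The whole-gene value thus does not check the genotype label, and each direction below compares libraries by their labels, cKO minus control. Neither group has a replicate, so no p-value was computed and each difference describes these libraries. A gene was counted as higher or lower when its difference on the log2(FPKM + 1) scale reached 2-fold and its deposited intervals stood apart. The deposited interval covers the estimate within a library and not the variation between animals. A gene was tested when either library had it at 1 FPKM or more, which held for 6 of the 7 inhibitors and 14154 genes in all.

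Of the 6 inhibitors tested, 1 (Cdkn1a) was higher in the library labelled cKO and 0 were lower. Among all tested genes, 4.73% were higher and 4.51% lower by the same rule, 9.23% in all. The median log2 difference of the 6 inhibitors was 0.13, beside 0.12 for all tested genes. In the library labelled cKO, 4 of the 7 inhibitor values (Cdkn1b, Cdkn2b, Cdkn2c and Cdkn2d) lie above their own deposited intervals. These values and their intervals are thus offset from each other, and their error was not measured. In the control library 0 of the 7 lie outside, but Cdk4 does, at 105.9 FPKM (interval 87.3 to 96.6). Separate intervals are therefore a limited guide. Apart from Cdkn1a, the differences of the tested inhibitors ran from -0.15 to 0.42.

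Among the Cip/Kip genes, Cdkn1a encodes p21, a target of p53 and of several differentiation and stress signals. It lies on chromosome 17, at 29227931 to 29237667 in mm9. It was at 9.94 FPKM in the control library, with an interval of 8.95 to 10.9, and at 33.6 FPKM in the library labelled cKO, with an interval of 32.7 to 35.1. The libraries did not overlap, and the FPKM ratio was 3.38. The log2 difference was 1.66, with 1.498 to 1.859 from the interval bounds, and 202 of the 14154 tested genes (1.43%) had a higher value. Counting both directions, 460 genes (3.25%) had a larger absolute difference than Cdkn1a. In bulk tissue, a change in the number of cells of a type and a change in RNA per cell cannot be told apart.

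Cdkn1b, which encodes p27 and lies on chromosome 6 (134870419 to 134875543), did not meet the rule. It was at 13.3 FPKM in the control library (interval 11.5 to 14.0) and 11.9 FPKM in the library labelled cKO (interval 10.5 to 11.7). The intervals overlapped, the second value lies above its own interval, and the log2 difference was -0.15. Cdkn1c, which encodes p57 and is imprinted, with expression from the maternal allele, lies on chromosome 7 (150644244 to 150646955). It was at 30.4 FPKM in the control library (interval 28.5 to 32.4) and 35.3 FPKM in the library labelled cKO (interval 33.9 to 36.8). Its intervals were separate but close, and the log2 difference of 0.21 was far from 2-fold. The GENCODE annotation of GRCm38 has an antisense gene, Gm44732, across Cdkn1c and an unclassified gene, AC167363.2, on the opposite strand of Cdkn1a. No source used here states whether counting used the strand, so reads of these partners cannot be told apart from those of the inhibitors.

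**Figure D1:**
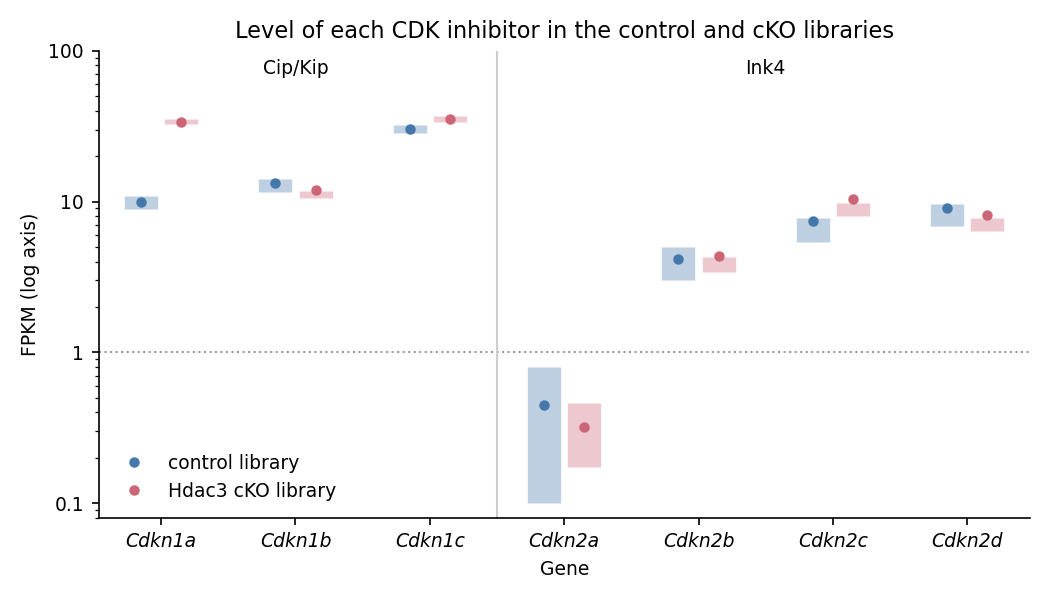
FPKM of the 7 inhibitors (log axis) in the control library and the library labelled cKO. Points are the deposited values, shaded bars the deposited intervals, and the dotted line the minimum of 1 FPKM. Cdkn1a went from 9.94 to 33.6 FPKM, while points of the other genes lie close together.

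Of the 3 Ink4 genes tested, 0 met the rule in either direction. Cdkn2a and Cdkn2b are neighbours on chromosome 4, at 88920377 to 88940523 and 88952198 to 88956941. Cdkn2a yields both p16, an Ink4 protein, and the unrelated p19ARF, which stabilises p53, from separate start sites, and the deposited value joins both. It was at 0.450 FPKM in the control library (interval 0.0999 to 0.805) and 0.319 FPKM in the library labelled cKO (interval 0.174 to 0.463). Both values were under the minimum of 1 FPKM, their intervals overlapped widely, and the gene was not tested. Cdkn2b encodes p15, which is known as a target of TGF-beta signalling. It was at 4.14 FPKM in the control library (interval 3.04 to 5.02) and 4.34 FPKM in the library labelled cKO (interval 3.42 to 4.32), a log2 difference of 0.05.

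Cdkn2c, which encodes p18 and lies on chromosome 4 (109333481 to 109337977), had the largest difference of the Ink4 genes. It was at 7.47 FPKM in the control library (interval 5.37 to 7.73) and 10.3 FPKM in the library labelled cKO (interval 7.96 to 9.71). The intervals were separate by a narrow margin, the second value lies above its own interval, and the log2 difference was 0.42. The interval bounds gave 0.04 to 0.75, and 38.7% of tested genes had a larger absolute difference than Cdkn2c.

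Cdkn2d, which encodes p19INK4D, has 2 entries of nearly the same length on chromosome 9. The entry at 21092908 to 21095653 was at 9.09 FPKM in the control library (interval 6.87 to 9.58) and 8.12 FPKM in the library labelled cKO (interval 6.42 to 7.79). A second entry, at 123836860 to 123839607, was at 8.41 FPKM and 7.31 FPKM. The first entry held 51.9% of their summed FPKM in the control library and 52.6% in the library labelled cKO. Reads that fit both copies could be divided between them, so the level of Cdkn2d is uncertain by about the size of the second entry. The RefSeq table of GRCm38 has 1 Cdkn2d gene. The difference depended little on this choice, with a log2 difference of -0.15 from the first entry and -0.17 from the sum (17.5 FPKM and 15.4 FPKM).

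In the control library Cdkn1c had the highest FPKM, followed by Cdkn1b, Cdkn1a, Cdkn2d, Cdkn2c, Cdkn2b and Cdkn2a. The intervals of Cdkn1a and Cdkn2d overlapped, as did those of Cdkn2d and Cdkn2c, so these neighbours were not separated. In the library labelled cKO, Cdkn1a stood second, and its interval overlapped that of Cdkn1c above it. Cdkn1b came next, and Cdkn2c stood above Cdkn2d, with separate intervals in each case. With both entries summed, Cdkn2d would stand above Cdkn1b in each library.

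The place of Cdkn1a among the inhibitors can be given without any scaling between libraries, as a ratio of FPKM within each. Cdkn1a was at 0.745 times the level of Cdkn1b in the control library and 2.83 times in the library labelled cKO. Against Cdkn1c it was at 0.327 and 0.954 times, and against Cdkn2c at 1.33 and 3.25 times. Each of these ratios was higher in the library labelled cKO, which follows from Cdkn1a having the highest FPKM ratio between the libraries of the 7 genes. Of the FPKM summed over the 7 genes, Cdkn1a held 13.3% in the control library and 32.4% in the library labelled cKO. The 7-gene sum was 74.9 FPKM and 103.9 FPKM, and without Cdkn1a it was 64.9 FPKM and 70.3 FPKM. The Cip/Kip family made up 71.8% of the sum in the control library and 77.8% in the library labelled cKO. With both Cdkn2d entries summed, these shares were 64.5% and 72.6%. With 1 entry, the other Cip/Kip genes held smaller shares in the library labelled cKO than in the control library. Those of Cdkn1b were 17.8% in the control library and 11.4% in the library labelled cKO, and those of Cdkn1c 40.65% and 33.9%.

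**Figure D2:**
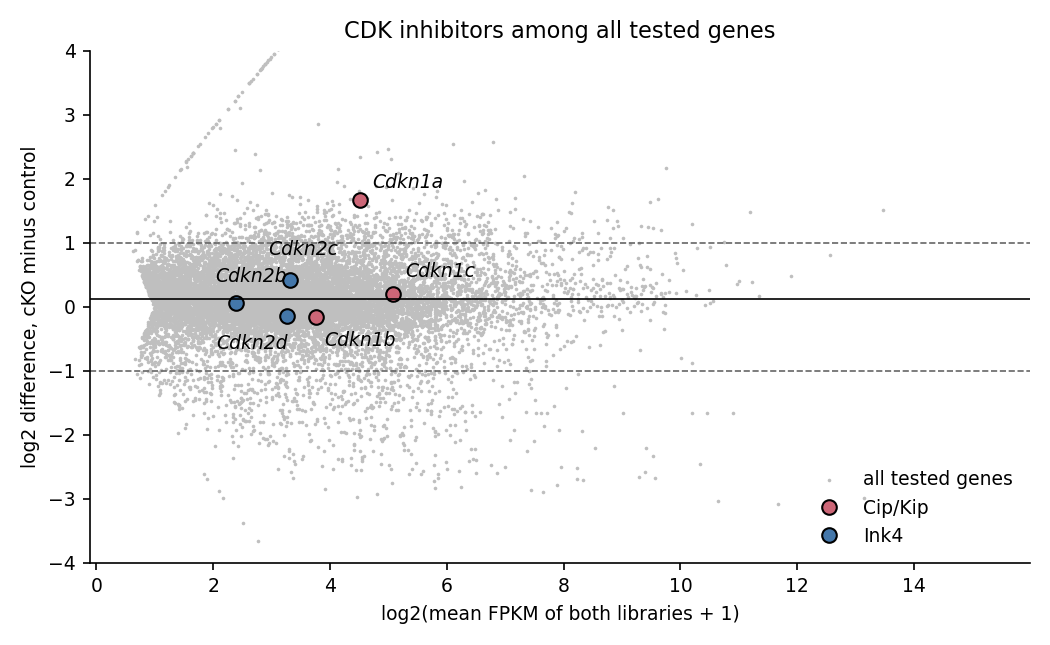
log2 difference of the library labelled cKO minus control (vertical axis) against mean level (horizontal axis) for all tested genes in grey, with the 6 tested inhibitors in colour. Dashed lines mark 2-fold, the solid line is the median of all tested genes, and 132 genes lie beyond the axis. Cdkn1a is at 1.66, while the other inhibitors lie between -0.15 and 0.42.

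Cdkn1a met the rule under every pseudocount and scaling tried, with log2 differences of 1.34 to 1.75. The signs of the smaller differences depended on the scaling for Cdkn1c and Cdkn2b. After scaling to the same sum, Cdkn1c was at -0.12 and Cdkn2b at -0.21. Cdkn2c stayed above 0 (0.12 to 0.47), and Cdkn1b (-0.46 to -0.12) and Cdkn2d (-0.44 to -0.10) stayed below 0 in those settings.

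**Figure D3:**
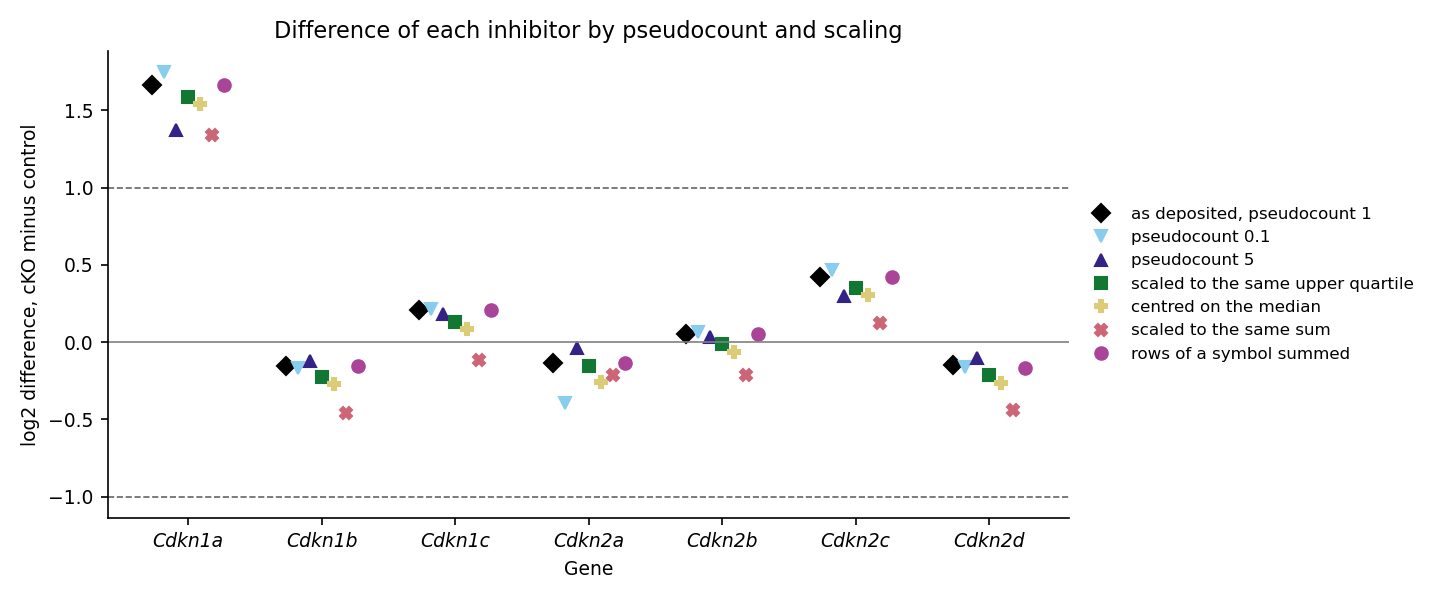
log2 difference of each inhibitor (library labelled cKO minus control) under 7 combinations of pseudocount, scaling and choice of entry. Dashed lines mark 2-fold. All points of Cdkn1a lie above 2-fold, and those of Cdkn1c and Cdkn2b fall on both sides of 0.

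Of 11 tested cyclin-dependent kinases and cyclins, the targets of the inhibitors, 0 met the rule, beside 9.23% of all tested genes. With so few genes, 0 is close to that share. Their median log2 difference was 0.06. Cdk4, the kinase bound by Ink4 proteins, was the most abundant at 105.9 FPKM in the control library and 83.5 FPKM in the library labelled cKO (log2 -0.34). Its D cyclin partners lay on the other side of 0. Ccnd1 was at 54.6 and 86.1 FPKM (log2 0.65), and Ccnd3 was at 39.6 and 71.7 FPKM (log2 0.84). The summed FPKM of Cdk4 and Cdk6 was 5.03 times that of the Ink4 genes in the control library and 3.64 times in the library labelled cKO. Both ratios use 1 of the 2 Cdkn2d entries. With both entries they would be lower, as the Ink4 sum rises from 21.1 to 29.6 FPKM in the control library and from 23.1 to 30.4 FPKM in the library labelled cKO. The summed D cyclins were at 2.07 and 2.28 times the summed Cip/Kip genes. Against the summed Ink4 genes, with 1 of the 2 Cdkn2d entries, they were at 5.26 and 7.95 times.

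Further down the pathway, 0 of 12 pocket protein and E2F genes met the rule, beside 9.23% of all tested genes. Their median was -0.05. Tfdp1, a dimer partner of E2F factors, was at 35.8 FPKM in the control library and 25.1 FPKM in the library labelled cKO (log2 -0.49). E2f4, a repressive E2F, was at 14.6 and 14.4 FPKM (log2 -0.01), E2f3 was at 7.85 and 4.93 FPKM (log2 -0.58), and E2f6 was at 5.69 and 8.66 FPKM (log2 0.53). For genes of DNA replication and mitosis, which are expressed in dividing cells, 0 of 18 met the rule, beside the same 9.23%. Of their differences, 13 of 18 were below 0, beside 38.6% of all tested genes. The median was -0.14, beside 0.12 for all tested genes. Pcna, the replication clamp, was at 78.0 and 69.8 FPKM (log2 -0.16) and Mcm7, a helicase subunit, at 14.6 and 13.4 FPKM (log2 -0.11). Mki67 and Rrm2 had the largest differences of this list, at log2 -0.39 and -0.30. Of 9 genes for the turnover of Cip/Kip proteins 0 met the rule, again beside 9.23%, with a median of 0.06. Cks1b, a cofactor in the ubiquitination of p27, was at 11.5 and 17.8 FPKM (log2 0.59), and Rnf123, a ligase subunit for p27, was at 9.15 and 10.6 FPKM (log2 0.19). Skp1a (log2 0.06) and Ddb1 (log2 0.05) were the most abundant of that list.

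Across the 10 pathway lists, 112 genes were tested, of which 11 (9.82%) were higher and 1 (0.893%) lower, beside 4.73% and 4.51% of all tested genes. These counts depended on the setting. At equal sums of FPKM, 2 (1.79%) were higher and 3 (2.68%) lower, beside 1.52% and 6.78% of all tested genes, and with a pseudocount of 5 there were 2 higher and 0 lower. The median of the 112 genes was 0.15. The medians of the kinase, turnover, p53 and Polycomb lists changed sign under at least 1 other scaling. Of 15 genes of p53 and its targets, 2 were higher and 0 lower. Differences of 5 genes were below 0, beside 38.6% of all tested genes, and the median was 0.14. Btg2, an antiproliferative gene, was at 4.54 and 11.6 FPKM (log2 1.19), and Perp, a membrane protein of junctions, was at 11.4 and 25.9 FPKM (log2 1.12), and both fell short of the rule at equal sums. Phlda3 was at 65.9 and 37.6 FPKM (log2 -0.79), and Bax, a mediator of apoptosis, was at 50.8 and 51.2 FPKM (log2 0.01). The 15 differences ran from -0.79 to 1.19.

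Of 12 tested transcription factors known to act on Cip/Kip genes, 4 were higher and none lower by the rule. Among all tested genes, 4.73% were higher and 4.51% lower. The list median was 0.63, beside 0.12 for all tested genes. Cebpb, a factor of inflammatory and differentiation programmes, was at 3.53 FPKM in the control library and 14.3 FPKM in the library labelled cKO (log2 1.75). Cebpd was at 4.79 and 12.0 FPKM (log2 1.17), Cebpa at 4.71 and 11.3 FPKM (log2 1.11), and Klf4, a direct activator of Cdkn1a in other tissues, at 7.83 and 18.1 FPKM (log2 1.11). Klf6 was the most abundant of the list at 18.3 and 20.4 FPKM (log2 0.15). Cebpb met the rule in each of 11 other settings. Cebpa and Klf4 fell short in 4 of 11 and Cebpd in 3 of 11, which include scaling to the same sum.

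Of 10 genes of TGF-beta signalling, a pathway known to induce Cdkn2b and Cdkn1a, 1 was higher and 1 lower, with a median of 0.43. The shares of all tested genes were 4.73% higher and 4.51% lower. Smad7, an inhibitor of the pathway, was at 12.5 and 4.68 FPKM (log2 -1.25), while the ligand gene Tgfb3 was at 9.52 and 20.2 FPKM (log2 1.01). Tgfb3 fell short of the rule under each of the 3 other scalings. Tgfb2 was at 60.7 and 85.9 FPKM (log2 0.49) and the receptor gene Tgfbr2 at 18.98 and 37.6 FPKM (log2 0.95). Of 10 Polycomb genes, whose products silence the Cdkn2a and Cdkn2b locus, 0 met the rule, beside 9.23% of all tested genes. Their median was 0.11. Phc1 was at 37.9 and 18.9 FPKM (log2 -0.97), Ezh2 at 14.9 and 8.83 FPKM (log2 -0.69) and Cbx7 at 2.56 and 5.16 FPKM (log2 0.79). The levels of Cdkn2a and Cdkn2b given above stand beside these values.

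Of 7 other antiproliferative genes, 3 were higher and all 7 differences were above 0, with a median of 0.67. Of all tested genes, 4.73% were higher by the rule and 61.4% had differences above 0. Gas1, a growth arrest gene, was at 20.2 and 43.4 FPKM (log2 1.07), and it fell short of the rule under each of the 3 other scalings. Btg2, also in the p53 list, was a further member, and Tob1 was at 10.6 and 17.5 FPKM (log2 0.67). Btg3 was at 0.000529 FPKM in the control library, with an interval of 0 to 0.0611, and 3.46 FPKM in the library labelled cKO, and no fold is given against a value so near 0. Of 10 tested imprinted growth genes, the group to which Cdkn1c belongs, 2 were higher and all 10 differences were above 0, with a median of 0.56. Igf2, a growth factor, was at 679 and 1665 FPKM (log2 1.29), Grb10, an adaptor that restrains growth signalling, at 13.7 and 32.2 FPKM (log2 1.17), and H19 at 59.9 and 115.6 FPKM (log2 0.94). After scaling to the same sum Igf2 and Grb10 fell short of the rule. Igf2 is also in the list of meningeal fibroblast markers, of which 6 of 8 were higher, and their part in its value was not tested. The log2 difference of Cdkn1c was 0.21.

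**Figure D4:**
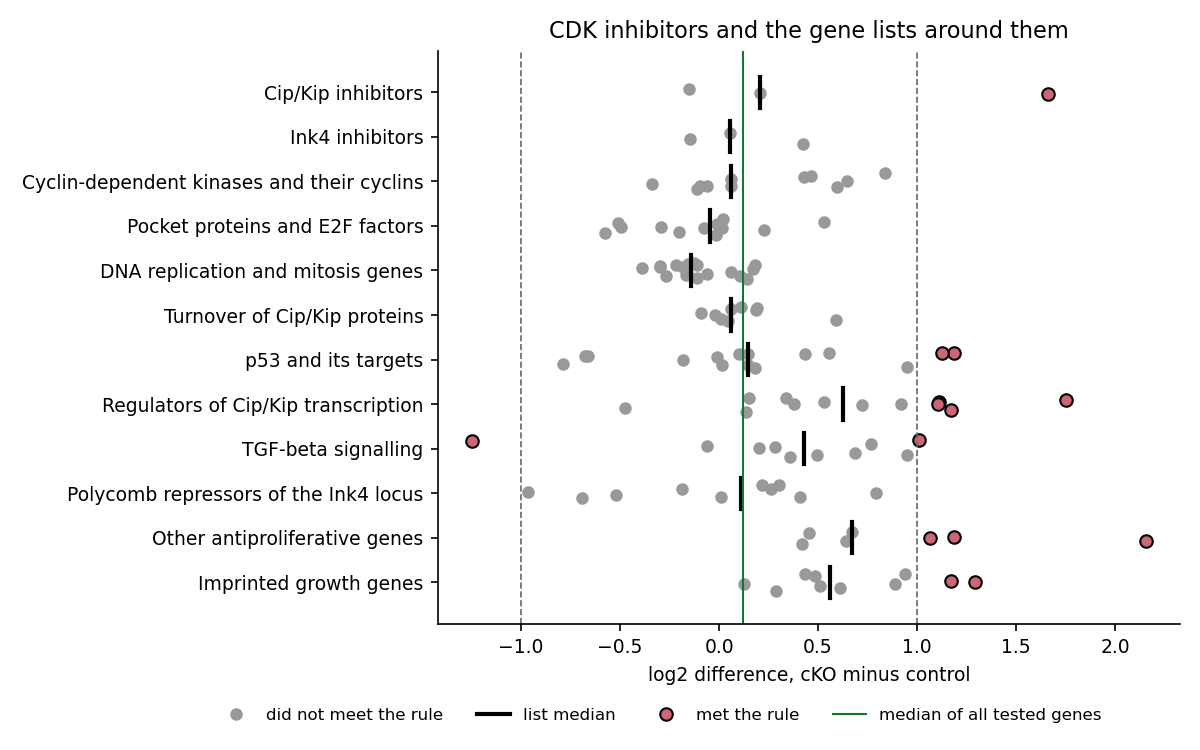
log2 difference (library labelled cKO minus control) of each tested gene in the inhibitor families and the 10 pathway lists, with 1 point per gene. Black bars are list medians, the vertical green line the median of all tested genes (0.12), dashed lines 2-fold, and red points met the size and interval rule. The Ink4 family and the kinase, E2F, replication, turnover and Polycomb lists have no red points.

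Levels of cell type markers are given beside these results, as sums over each list. Counts by the rule stand beside 4.73% higher and 4.51% lower among all tested genes. All 12 oligodendrocyte markers were lower in the library labelled cKO, and their summed level was 27852 FPKM in the control library and 3712 FPKM in the library labelled cKO. Of 8 precursor markers, 4 were lower and 0 higher, and the sum was 413.7 and 205.8 FPKM. Gpr17 carried most of that gap (215.3 and 37.2 FPKM), and the other 7 precursor markers summed to 198.4 and 168.5 FPKM. Among them, Neu4 (15.2 and 2.47 FPKM), Lhfpl3 (34.7 and 14.7 FPKM) and Pcdh15 (2.62 and 0.385 FPKM) were lower by the rule. Cspg4 was at 9.93 and 6.93 FPKM and Matn4 at 48.9 and 48.8 FPKM. Pdgfra, at 35.4 and 38.8 FPKM, and Ptprz1, at 51.8 and 56.4 FPKM, were the 2 with differences above 0. For 11 astrocyte markers, without Gfap, which is listed at 0 in the library labelled cKO with a status of too many fragments, the sum was 1933 and 3300 FPKM, with 2 higher. Aqp4, at 181.5 and 153.4 FPKM, was the 1 of these 11 with a difference below 0. Of 8 meningeal fibroblast markers 6 were higher, with sums of 1843 and 4278 FPKM, or 1164 and 2613 FPKM without Igf2. Of 8 mural cell markers 1 was higher (281.5 and 511.6 FPKM). Endothelial markers (147.5 and 195.1 FPKM over 8 genes), microglia markers (297.3 and 480.9 FPKM over 8) and Schwann cell markers (102.4 and 178.2 FPKM over 6) had 0 members past the rule. Pmp22 carried most of the Schwann cell sum (95.6 and 166.8 FPKM), and 4 of those 6 genes were tested. Of the microglia markers, 6 had differences above 0, while Cx3cr1 was at 16.2 FPKM in each library and P2ry12 at 14.3 and 12.4 FPKM. For neurons, 2 of 6 tested markers, Nefl and Nefh, were higher (sums over 8 genes of 28.8 and 57.9 FPKM, and 12.3 and 14.6 FPKM without these genes). So were 2 of 4 tested red blood cell genes (sums over 5 genes of 90.7 and 268.6 FPKM). Hba-a2, at 5.30 and 3.46 FPKM, was the 1 of these 4 with a difference below 0. Other than Gfap, 0 of these markers were listed at 0 in either library. The part of these cell types in the Cdkn1a value was not tested.

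By distance on the log2(FPKM + 1) scale over the 2 libraries, the tested genes nearest to Cdkn1a were Pipox (10.6 and 34.1 FPKM, distance 0.09), Snora3 (9.07 and 34.4 FPKM, distance 0.12) and Enpp1 (10.7 and 36.9 FPKM, distance 0.16). Nearest to Cdkn1c, the inhibitor with the highest mean level, were Cers5, Slc25a17 and Ppp4c, with distances of 0.01, 0.01 and 0.02. With 2 libraries this likeness amounts to a similar level and a similar difference.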

How the data were processed

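Per the file headers, the authors deposited gene FPKM values with interval bounds and a status. CASAVA, TopHat, Cufflinks and the mm9 build are listed in the submitters' processing notes. No source used here gives tool versions, annotation, normalisation mode or read numbers, so depth is unknown and its effect on precision shows only in the interval half-widths (for the 7 inhibitors, 6.42% to 77.9% of the midpoint in the control library and 3.53% to 45.5% in the library labelled cKO).

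Both tables (24460 entries) were joined by symbol, start site group and locus, and the entry with the highest summed FPKM stood for a symbol. Differences were log2 of FPKM plus a pseudocount of 1, with no further scaling, for genes with status OK that reached 1 FPKM in either library. Calls needed 2-fold and separate intervals. The computation (Python 3.11.15, pandas 2.3.3) was checked on simulated data. Simulated intervals always held their own values and had no variation between animals, so the check does not cover the deposited intervals. Named genes are the inhibitors, Hdac3, the 2 most abundant and 2 most different genes and any called gene of each pathway list, and the 3 nearest genes to Cdkn1a and Cdkn1c. For cell type lists, sums are given, with single markers named where they describe a sum. Tigar was matched through an older symbol. The inhibitors and the lists were chosen with earlier results of these data known. Other pseudocounts, scalings, minimums, folds and entry choices were tried. Scaling to the same sum used genes of every status, and not the tested genes alone.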

Additional observations from a re-analysis of the deposited data

How the results depend on the processing

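No replicates exist, and no setting changed the call of any inhibitor: in 11 other settings 1 was higher and 0 lower. No paired analysis was possible because each group has 1 library. The log2 difference of Cdkn2b turned to -0.0091 at equal upper quartile, -0.066 with median centring and -0.21 at equal sum, where that of Cdkn1c was -0.12 (the median of all tested genes was 0.12 as deposited, 0.05 at equal upper quartile and -0.16 at equal sum). With both Cdkn2d entries summed, a choice made after seeing the data, the Ink4 share of summed inhibitor FPKM was 35.5% in the control library and 27.4% in the library labelled cKO, and the Cip/Kip share 64.5% and 72.6%. Against 669 higher and 638 lower genes as deposited, there were 1156 higher with a pseudocount of 0.1, and 282 higher and 339 lower with a pseudocount of 5. Median centring gave 439 higher and 761 lower (36.6% higher), equal upper quartile 531 and 696 (43.3% higher), and equal sum 215 and 960 (18.3% higher, beside 51.2% as deposited). A 1.5-fold limit gave 2262 and 1253, and a 3-fold limit 91 and 247. Of the pathway genes (11 higher, 1 lower), 2 were higher and 0 lower with a pseudocount of 5 and at 3-fold, and 27 higher and 6 lower at 1.5-fold. Equal upper quartile left 2 lower, centring 7 higher and 2 lower, and equal sum 2 higher and 3 lower. Of 22 list medians, 6 changed sign in at least 1 setting: those of both inhibitor families, the kinases and cyclins, the turnover genes, the p53 list and the Polycomb genes. Limits: 1 library per group, unknown depth, joined start sites and a divided Cdkn2d.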
